A study of Arabidopsis thaliana with 12 samples.

Results

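Seedlings of the ethylene mutant eto1-4 grown with the compounds 9393 or 9370 were compared with eto1-4 seedlings grown with AVG, on 6 of the 12 Affymetrix arrays of the study. The arrays were taken by their labelled treatment: 2 arrays of eto1-4 with 9393 and 2 of eto1-4 with 9370, set against 2 of eto1-4 with AVG. All seedlings had the Col-0 background, were 3 days old, grew in the dark on 0.5x MS medium and were harvested whole, and each treatment was given at 10 µM. The other 3 groups of 2 arrays gave context and shared the estimate of the spread: eto1-4 with 10 µM 7303, untreated eto1-4 and untreated wild-type Col-0. Of the 22810 probe sets on the array, 64 array controls were left out, and 14830 were bright enough to be tested.

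Plants make ethylene from methionine by way of S-adenosylmethionine and ACC, and ACC synthase is the step that usually sets the rate. ETO1 marks a class of ACC synthases for degradation, so eto1-4 overproduces ethylene and shows the short, thick hypocotyl of the triple response in the dark. AVG, aminoethoxyvinylglycine, blocks ACC synthase and also inhibits other enzymes that use pyridoxal phosphate. The series describes all of the added agents as ethylene antagonists, and 9393, 9370 and 7303 are known here by their codes alone. The comparison therefore asks where transcripts of eto1-4 differ between the coded compounds and a known inhibitor of ethylene synthesis at the same dose and age. Nothing in the labels says that the 2 arrays of a group came from separate cultures. The p-values therefore cover the spread among these arrays alone, and that spread may be technical. In whole seedlings, fewer cells of a type and less RNA per cell cannot be told apart.

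The arrays did not separate by compound alone. Between the replicate 1 arrays of 9393 and 9370 the median absolute log2 difference over tested probe sets was 0.19, and between their replicate 2 arrays it was 0.13. Within a compound the replicates lay farther apart, at 0.36 for 9393 and 0.37 for 9370. The AVG arrays differed from each other by 0.18, from the replicate 2 arrays of the compounds by 0.23 to 0.27, and from the replicate 1 arrays by 0.36 to 0.38. Replicate 1 of 9393 and of 9370 carried no signal of the poly-A spike RNA (3.75 and 11.5 mean dap signal), whereas their replicate 2 arrays had 295 and 324 and both AVG arrays had 356 and 328. Replicate 1 of untreated eto1-4 and of Col-0 lacked it too (5.13 and 2.65). The 3' to 5' signal ratio of the GAPDH control was 2.02 and 1.18 with 9393, 1.99 and 1.45 with 9370, and 1.46 and 1.38 with AVG, for replicates 1 and 2. The signal of a 25S ribosomal RNA probe set was 11492 and 2072 with 9393, 12724 and 1153 with 9370, and 9513 and 7285 with AVG, in the order of replicates 1 and 2. The part of these differences in the results was not tested. For this reason the difference from the replicate 2 arrays of 9393 and 9370 alone is given beside most results. PORB, a protochlorophyllide oxidoreductase of dark-grown seedlings, had a signal between 4136 and 15950.0 on the 12 arrays.

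**Figure D1:**
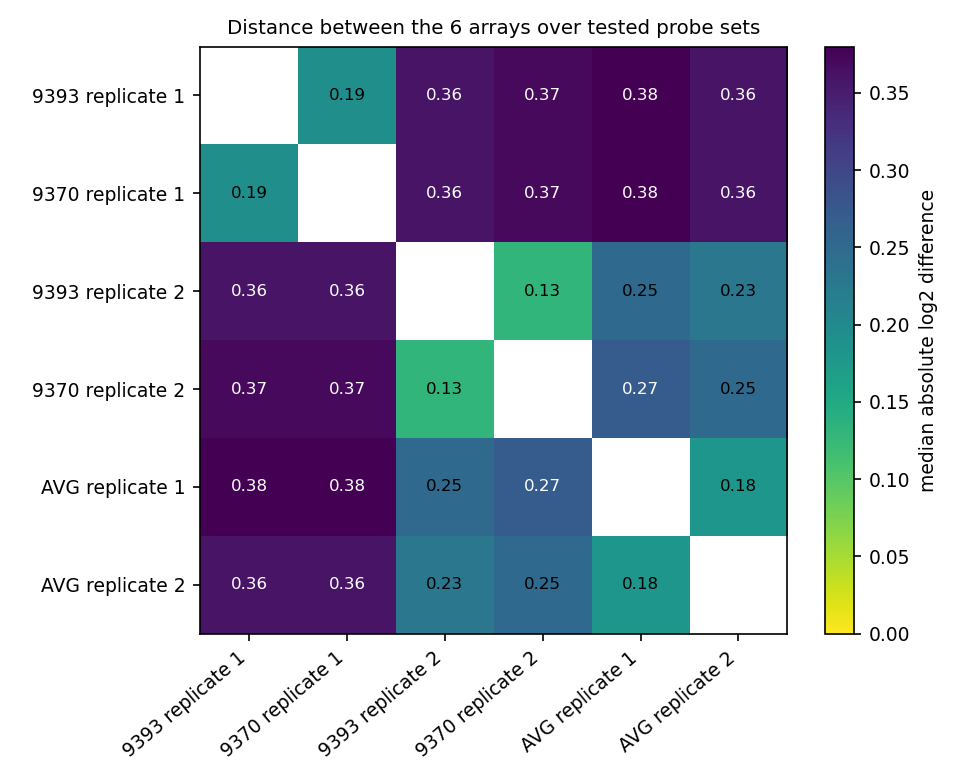
Median absolute log2 difference over the 14830 tested probe sets between each pair of the 6 arrays of 9393, 9370 and AVG. The replicate 1 arrays of 9393 and 9370 lie 0.19 apart and 0.36 to 0.38 from the other 4 arrays; the replicate 2 arrays lie 0.13 apart and 0.23 to 0.27 from the AVG arrays.

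A single gene passed the test of 9393 and 9370 together against AVG. It was THI2.2 (AT5G36910), which encodes thionin 2.2, a small cysteine-rich protein of a family known for antimicrobial activity. Its signal was 656 and 617 on the 9393 arrays and 856 and 529 on the 9370 arrays, against 5.21 and 5.90 on the AVG arrays. Every compound array thus lay far above both AVG arrays, and the groups did not overlap. On the scale of log2(signal + 22.4) THI2.2 rose by 4.6 with 9393 and 9370 relative to AVG (95% confidence interval 3.66 to 5.53), with an adjusted p of 0.00962 in limma. This was 1 probe set of 14830, or 0.00674%, and none was called lower (0%). The count depended on single arrays, those of groups outside the comparison included: it was 125 without replicate 1 of 7303, 124 without its replicate 2, 9 without replicate 2 of 9370, and 0 without either AVG array. Without adjustment, 1356 probe sets were higher (9.14%) and 984 lower (6.64%) at p under 0.05.

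THI2.2 was near the bottom of the array's range with AVG, and on 2 of the 4 arrays of 9393 and 9370 its signals lay above both wild-type arrays. Untreated eto1-4 had signals of 127 and 283, untreated Col-0 had 479 and 621, and 7303 gave 113 and 394. With AVG, THI2.2 fell by 2.94 on the log2 scale relative to untreated eto1-4 (adjusted p 0.0148). The differences of 9393 and 9370 from untreated eto1-4 were 1.62 (adjusted p 0.142) and 1.7 (adjusted p 0.0801), neither of which passed. These comparisons share the untreated eto1-4 arrays, and the ones above share the AVG arrays. Because both AVG signals lie below the offset of 22.4, the size of the difference depends on it: it was 6.65 with an offset of 1 and 3.37 with an offset of 64. Without AVG replicate 1 the adjusted p was 0.201 and without AVG replicate 2 it was 0.0944, so the call rests on having both AVG arrays. From the replicate 2 arrays of 9393 and 9370 alone the difference was 4.41, with an adjusted p of 0.125.

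**Figure D2:**
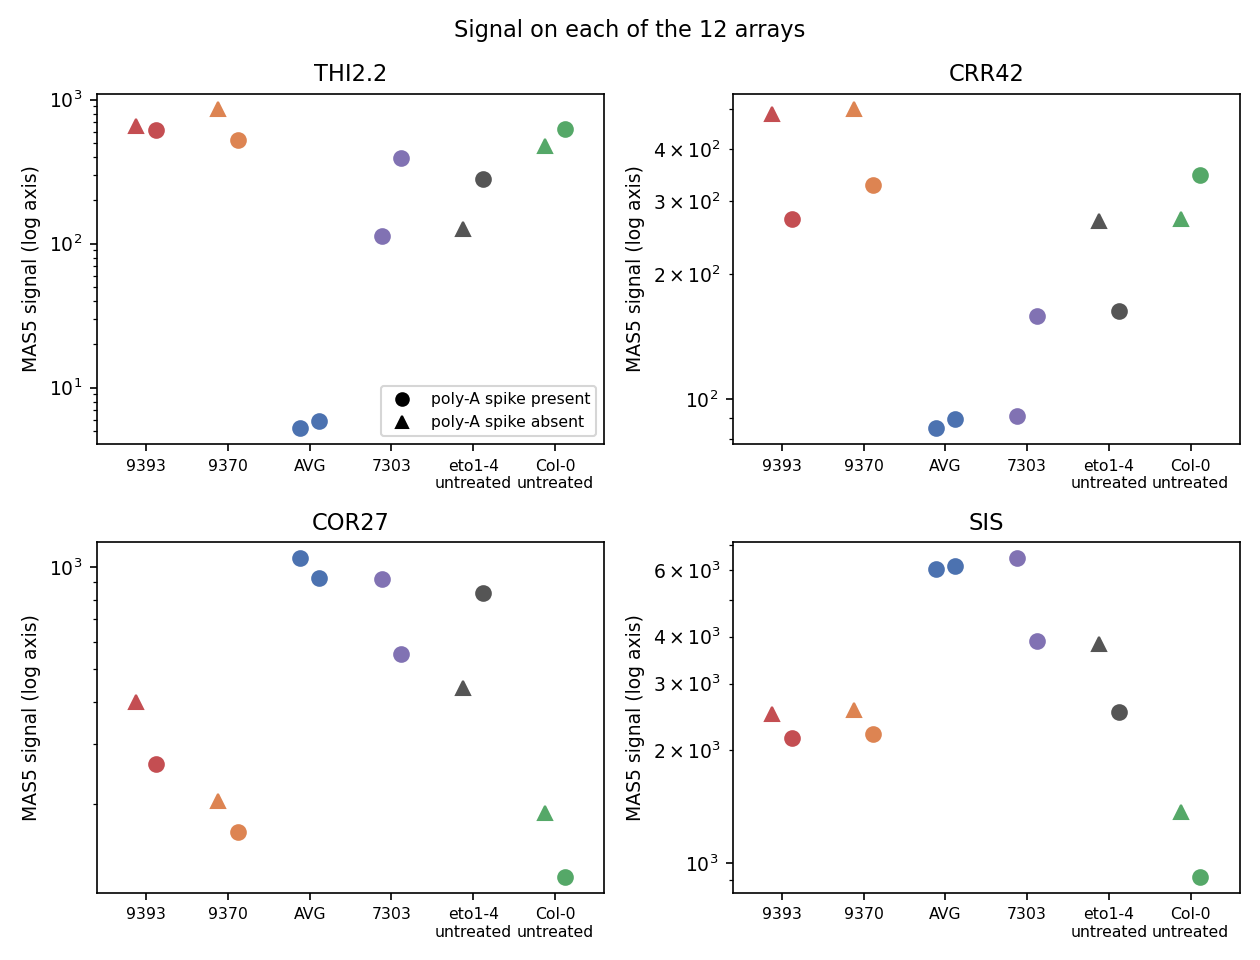
MAS5 signal (log axes, a different range in each panel) of THI2.2, CRR42, COR27 and SIS on each of the 12 arrays, with replicate 1 left and replicate 2 right in each group. THI2.2 lies at 529 to 856 on the arrays of 9393 and 9370 and at 5.21 and 5.90 with AVG; triangles are arrays without poly-A spike signal.

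A wider set of genes lay just outside the threshold. The second smallest adjusted p was 0.0701, and 366 probe sets had an adjusted p under 0.10, of which 244 were higher and 122 lower with 9393 and 9370. When the 4 arrays were fitted as 1 group in place of 2 groups of 2, a setting planned as an alternative, limma called 174 probe sets: 121 higher (0.816% of those tested) and 53 lower (0.357%). The 4 arrays are not 4 independent replicates: replicate 1 minus replicate 2 correlated at 0.78 across probe sets between 9393 and 9370. Both fits take them as independent, so the p-values against AVG may be too small. In the fit with separate groups the adjusted p of these 174 lay between 0.00962 and 0.0851. In all 174 the 4 compound arrays lay on 1 side of both AVG arrays, as was so for 15.1% (higher) and 13% (lower) of all tested probe sets. The 174 also depended on single arrays. Without replicate 1 of 9393, of 9370 or of Col-0, or replicate 2 of Col-0, 1 probe set was called, without AVG replicate 1 it was 0, without AVG replicate 2 it was 3 and without replicate 2 of 9370 it was 6. Without the other arrays it was 135 (replicate 2 of 9393), 226 and 228 (untreated eto1-4) and 254 (either 7303 array), with 99 to 169 of the 174 among them. From the replicate 2 arrays alone the median difference was 1.22 for the higher set and -0.89 for the lower set, against 1.33 and -0.94 from the 4 arrays, and the choice of the set fixes its direction. The replicate 2 comparison called no probe set in limma (0%), and 2075 with the replicate 1 arrays in their place, a setting added after the data were seen. From the replicate 2 arrays the smallest adjusted p was 0.125, and 2464 probe sets (16.6%) had an unadjusted p under 0.05. Of the 174, 93 name 1 gene, 65 higher and 28 lower. The genes described next come from this set or from the 15 highest and 15 lowest differences that did not overlap between the groups and had an unadjusted p under 0.05 (8.65% and 6.31% of tested probe sets). They were chosen after their values were seen, and apart from THI2.2 none passed with separate groups.

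Among the 65 genes called higher when the 4 arrays were 1 group were CRR42, CCB3, NTRC, LrgB, LPA66 and psbD. They were picked from the 65 for their roles in plastids, so they do not show that such roles are frequent among the 65. In the lists closest to these roles, 0 of 17 measured nuclear photosynthesis genes and 1 of 68 genes of the chloroplast genome (psbD) were called in this way. CRR42 (AT5G20935), needed for the chloroplast NAD(P)H dehydrogenase complex, had signals of 486 and 271 with 9393 and 499 and 327 with 9370, against 84.9 and 89.4 with AVG. The difference was 1.89 on the log2 scale, with an adjusted p of 0.0732 with separate groups and 0.0375 with the 4 arrays as 1 group. All 4 compound arrays lay above both AVG arrays, as the choice of genes required, and the replicate 1 arrays were the highest of the 4.

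CCB3, which helps assemble the cytochrome b6f complex, had 286 and 146 with 9393 and 241 and 213 with 9370, against 72.8 and 56.6 with AVG (difference 1.46, adjusted p 0.0755, or 0.0375 as 1 group). NTRC, the plastid NADPH-dependent thioredoxin reductase C, had 880.4 and 1068 with 9393 and 1013 and 1345 with 9370, against 493 and 489 with AVG, a difference of 1.08. LrgB, the plastid transporter of glycolate and glycerate, had 2169 and 1847 with 9393 and 2136 and 1682 with 9370, against 791 and 1036 with AVG, a difference of 1.09. In each of these the lowest compound array exceeded the higher AVG array, which the choice of genes required. LPA66, a pentatricopeptide repeat protein needed for photosystem II, reached 176 and 170.3 with 9393 and 149.6 and 211 with 9370, against 88.4 and 83.7 with AVG, a difference of 0.87, and of 0.97 from replicate 2 alone. The plastid-encoded psbD, for the D2 protein of photosystem II, stood at 1085 and 1262 with 9393 and 1332 and 1637 with 9370, against 647 and 699 with AVG. CaS (AT5G23060), the thylakoid calcium-sensing receptor, had 1133 and 1351 with 9393 and 1126 and 1639.6 with 9370, against 431 and 283 with AVG. Its difference of 1.83 missed the threshold in both fits (adjusted p 0.0931 with separate groups and 0.0527 as 1 group). With replicate 2 alone, the differences of NTRC, psbD and CaS were 1.25, 1.07 and 2.02, and those of CRR42, CCB3 and LrgB were 1.55, 1.2 and 0.94.

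Other genes called higher as 1 group have other roles. SPCH, the SPEECHLESS transcription factor that starts the stomatal lineage, had dim signals of 86.4 and 83.1 with 9393 and 80.3 and 105 with 9370, against 8.33 and 29.5 with AVG, a difference of 1.47. The AVG signals of SPCH lie below and just above the offset, which therefore sets the size: it was 2.4 with an offset of 1 and 0.89 with an offset of 64. GTR1, a glucosinolate transporter, had 529 and 515 with 9393 and 588 and 367 with 9370, against 179 and 209 with AVG, a difference of 1.26. ALN, the allantoinase of ureide breakdown, stood at 1092 and 1029 with 9393 and 1238 and 1133 with 9370, against 498 and 661 with AVG, a difference of 0.94. The choice of these 3 genes required that the compound arrays not overlap the AVG arrays. From replicate 2 alone SPCH, GTR1 and ALN differed by 1.54, 1.08 and 0.89. AGL87, a MADS-box gene, TRM22, BGLU40, a beta-glucosidase gene, and TBL45, of the trichome birefringence-like family, differed by 1.16, 1.05, 0.89 and 0.81 and were called as 1 group, as were the 3 before. XTH32, a xyloglucan endotransglucosylase gene of wall remodelling, passed neither fit and had a wider spread. Its signals were 2227 and 948 with 9393 and 2041 and 588 with 9370, against 401 and 208 with AVG. The difference was 2.04 from the 4 arrays (adjusted p 0.137) and 1.3 from replicate 2 alone, the replicate 1 arrays being the higher ones of both compounds.

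Genes named by locus alone filled most of the highest places. AT5G48490 had 2324 and 2083 with 9393 and 3718 and 2598 with 9370, against 1014 and 119 with AVG. The AVG arrays differed widely from each other there, and the difference of 2.78 had an adjusted p of 0.154. AT1G14345 had 1667 and 1712 with 9393 and 1715 and 1510.0 with 9370, against 584 and 226 with AVG, a difference of 2.11 and of 2.07 from replicate 2 alone. AT1G44000, AT4G12830 and AT1G22630 differed by 1.94, 2.1 and 2.2, and each passed as 1 group. AT3G56290 (2.57), AT1G21500 (2.17), AT3G52740 (1.93), AT5G42760 (1.84), AT1G03320 (1.77) and AT2G36145 (1.76) passed neither fit. For AT3G52740, AT5G42760 and AT1G03320 the differences from replicate 2 alone were 0.92, 0.84 and 0.85, under 1 on the log2 scale.

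**Figure D3:**
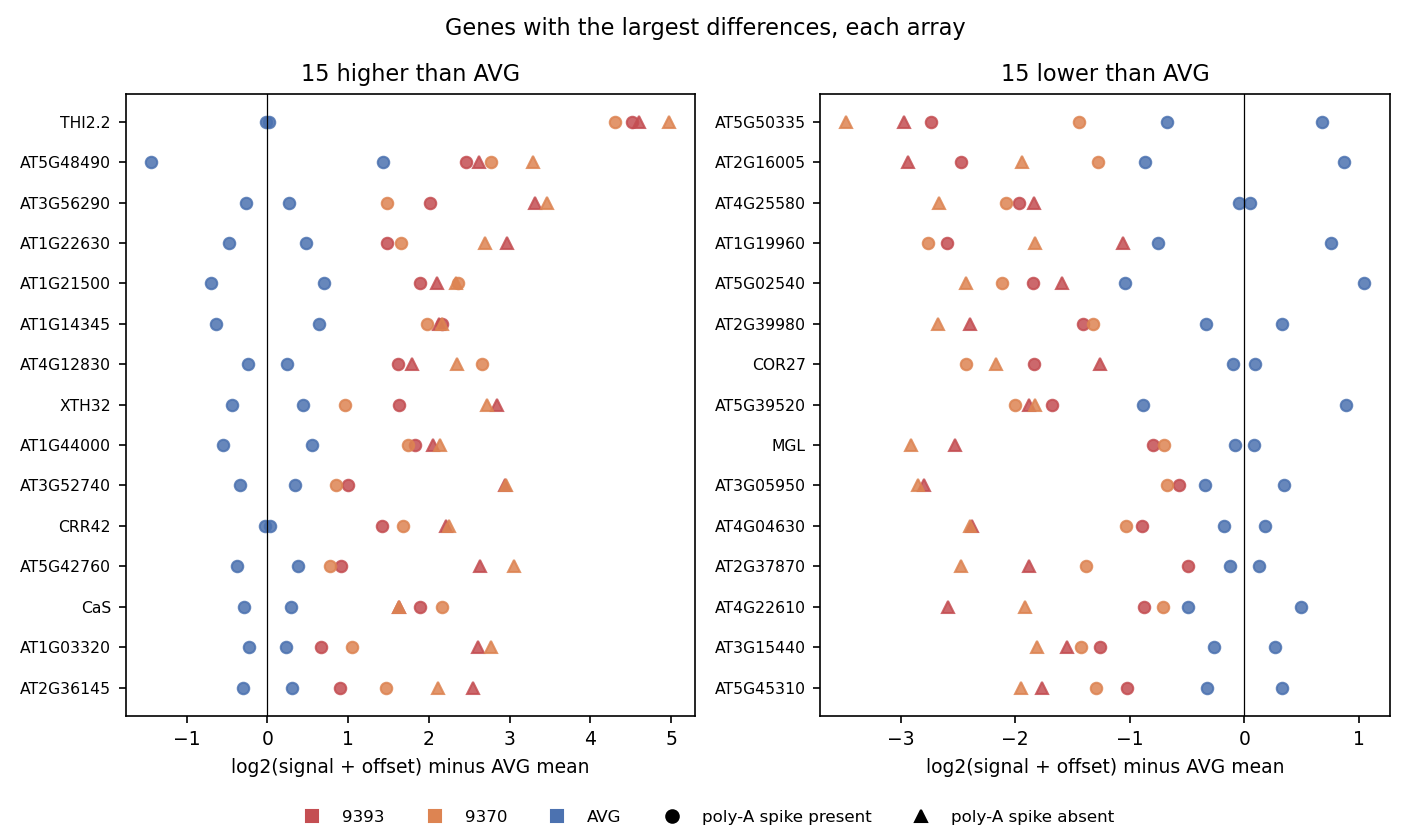
Log2(signal + 22.4) of each array minus the mean of the 2 AVG arrays, for the 15 genes highest (left) and the 15 lowest (right) with 9393 and 9370. Triangles are the replicate 1 arrays of 9393 and 9370, without poly-A spike signal; for MGL they lie well beyond the replicate 2 arrays, and for COR27 they do not.

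COR27, SIS and CuAO1 were lower with 9393 and 9370 than with AVG, and each was called with the 4 arrays as 1 group. COR27 (AT5G42900), a cold-regulated gene, had signals of 400.2 and 262 with 9393 and 204 and 166 with 9370, against 1062 and 927 with AVG. The difference was -1.92 (adjusted p 0.0732 with separate groups, 0.0375 as 1 group) and -2.13 from replicate 2 alone. SIS (AT5G02020), a salt-induced serine-rich protein gene, stood at 2496 and 2148 with 9393 and 2556 and 2198 with 9370, against 6048 and 6145 with AVG. Its arrays agreed closely within each treatment, and the difference was -1.37 (adjusted p 0.0755 with separate groups, 0.0375 as 1 group) and -1.48 from replicate 2 alone. CuAO1, a copper amine oxidase gene of polyamine breakdown, differed by -0.7, with 289 and 315 with 9393 and 279 and 281 with 9370, against 551 and 427 with AVG.

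Of the loci without a symbol, AT4G25580 had the smallest adjusted p after THI2.2 (0.0701, and 0.0287 as 1 group). Its signals were 309 and 280.1 with 9393 and 164 and 258 with 9370, against 1203 and 1122 with AVG, a difference of -2.14. AT5G50335 gave the lowest difference of all named genes, -2.66, and AT2G39980 gave -1.95, both past the threshold as 1 group. AT2G16005 (-2.16), AT1G19960 (-2.06), AT5G02540 (-2) and AT5G39520 (-1.85) passed neither fit. Nor did AT3G05950 (-1.72), AT4G04630 (-1.67), AT2G37870 (-1.56), AT4G22610 (-1.52), AT5G45310 (-1.51) and AT3G15440 (-1.51).

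Untreated seedlings gave a readout at the same probe sets, from arrays on neither side of the comparison. These arrays did enter the estimate of the spread that chose the sets, so the readout is not independent of that choice. The untreated genotypes also differed in the 25S ribosomal RNA signal, at 9784 and 2260 in eto1-4 against 208 and 266 in Col-0. The part of this difference in the readout was not tested. Of the 121 probe sets higher with 9393 and 9370 than with AVG, 117 (96.7%) were lower in untreated eto1-4 than in Col-0, as were 53.6% of all tested probe sets. The median difference of eto1-4 from Col-0 was -0.66 over these 121, against -0.03 over all. Of the 53 probe sets lower with 9393 and 9370 than with AVG, 48 (90.6%) were higher in eto1-4 than in Col-0, as were 46.4% of all tested, with a median of 0.63. The count was alike within each replicate number: 117 and 114 of the 121 were lower in eto1-4, and 7 and 2 of the 53. In the test of eto1-4 against Col-0, 6 of the 121 were called lower (1.22% of all tested were) and 12 of the 53 were called higher (0.978% of all tested were). Probe sets are not independent replicates, and these counts carry no test. With AVG the mean was the lowest of the 6 groups for 116 of the 121 (20.7% of all tested) and the highest of the 6 for 48 of the 53 (18.6%), which the choice of the sets favours.

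**Figure D4:**
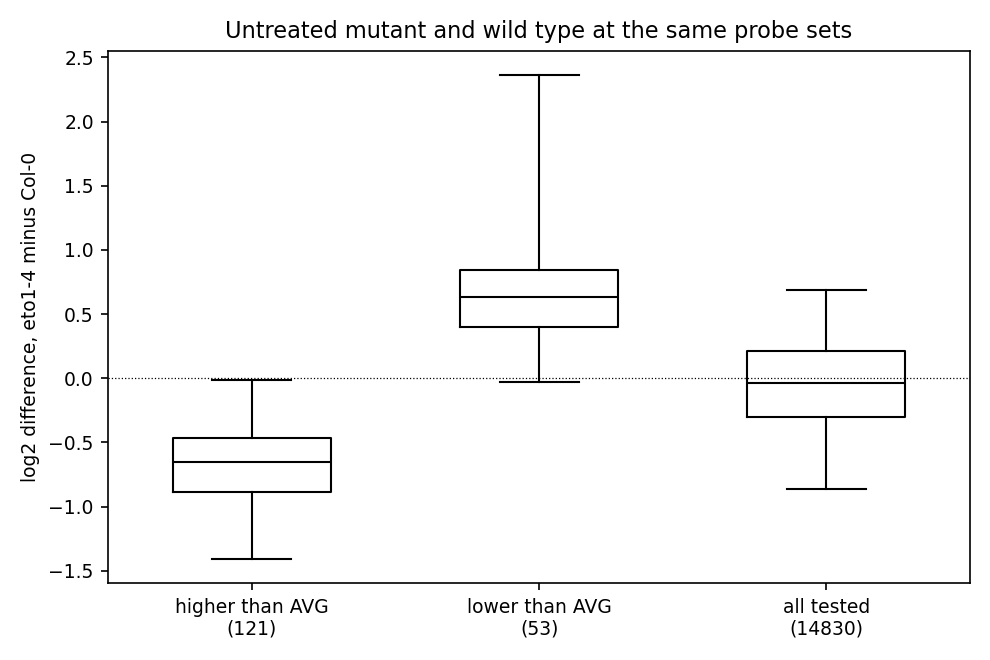
Log2 difference of untreated eto1-4 from untreated Col-0 for the 121 probe sets higher and the 53 lower with 9393 and 9370 than with AVG (4 arrays as 1 group), and for all 14830 tested. Boxes span the quartiles with the median as a line, and whiskers run from the 5th to the 95th percentile; the medians are -0.66, 0.63 and -0.03.

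The named genes show how these levels line up. AT4G25580 was at 829.8 and 1172 in untreated eto1-4 and 122 and 115 in Col-0 (difference 2.84, adjusted p 0.00569), so its AVG signals were near those of the untreated mutant and its 9393 and 9370 signals between mutant and wild type. AT2G39980 had 486 and 980.0 with 9393 and 395 and 1046 with 9370, against 2098 and 3334 with AVG. In untreated eto1-4 it had 4913 and 5297, against 347 and 202 in Col-0 (difference 4.15, adjusted p 0.00647). AVG differed from untreated eto1-4 by -0.94 at this gene (adjusted p 0.257), 9393 by -2.84 (adjusted p 0.039) and 9370 by -2.94 (adjusted p 0.0165). COR27, SIS, AT5G50335 and AT5G02540 were also called higher in eto1-4 than in Col-0, by 1.85, 1.45, 3.34 and 3.18. SIS had 3821 and 2518 in untreated eto1-4 and 1366 and 920.4 in Col-0, so its level with AVG was above both. CaS, at 639.7 and 653 in eto1-4 and 1338 and 1623 in Col-0, was near the wild-type level with 9393 and 9370 and below both untreated genotypes with AVG.

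Ethylene perception and signalling was covered by 5 measured genes, and none passed the test in any of these comparisons with AVG. All 5 differences were below 0, between -0.67 and -0.21, with a median of -0.27, and of -0.31 from replicate 2 alone, against 0.02 over all genes in both. EIN3 and ETP2 were lower without overlap and none was higher (2 of 5 and 0 of 5, against 13% and 15.1% of all tested probe sets). The summed signal of the 5 was 4585 and 5833 with 9393 and 4346 and 5608 with 9370, against 6396 and 8031 with AVG, with no overlap. It was 8756 and 8446 in untreated eto1-4 and 4216 and 3676 in Col-0. EIN3, the transcription factor at the end of the ethylene pathway, had 1855 and 3295 with 9393 and 1774 and 2799.8 with 9370, against 3805 and 3708 with AVG. The difference of -0.67 (adjusted p 0.24) was -0.3 from replicate 2 alone, and the replicate 1 arrays were the lowest. RTE1, which acts with the receptor ETR1, had 269.6 and 229 with 9393 and 198 and 246 with 9370, against 268 and 465 with AVG, and the groups overlapped (difference -0.55, adjusted p 0.338). Untreated eto1-4 had 788 and 782, against 226 and 119 in Col-0, so each of the treatments had RTE1 below the untreated mutant. ARL, of the ARGOS family that dampens ethylene responses, stood at 1440.0 and 1302 with 9393 and 1197 and 1588 with 9370, against 990.4 and 2678 with AVG and 4542 and 3761 in untreated eto1-4. The AVG arrays enclosed the compound arrays for ARL, and the difference of -0.24 (adjusted p 0.767) was 0.46 without AVG replicate 2. RTH, the homolog of RTE1, and ETP2, an F-box protein that targets EIN2, differed by -0.27 and -0.21, and from replicate 2 alone by -0.33 and -0.31. No probe set naming 1 gene belonged to the ethylene synthesis list or to the ERF family list. The annotation listed no gene for 8730 of the 22810 probe sets, so this does not show that the array lacks them. BCAT4, an aminotransferase of methionine-derived glucosinolate synthesis that uses pyridoxal phosphate, was too dim to be tested.

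Methionine and sulfur metabolism, which supplies the precursor of ethylene, had 9 measured genes. Of these 5 were lower with 9393 and 9370 than with AVG without overlap and 0 higher, against 13% and 15.1% of all tested probe sets, and none passed the test. MGL (AT1G64660), methionine gamma-lyase, had 696 and 2358 with 9393 and 528 and 2519 with 9370, against 3885 and 4368 with AVG. The replicate 1 arrays were far below the replicate 2 arrays, and the difference was -1.74 from the 4 arrays (adjusted p 0.179) and -0.75 from replicate 2 alone. HMT-1, a homocysteine methyltransferase, APS4, an ATP sulfurylase, CBL, cystathionine beta-lyase, and ARD4, an acireductone dioxygenase of methionine salvage, differed by -0.58, -0.55, -0.49 and -0.49. The median of the 9 was -0.49, and -0.24 from replicate 2 alone, against 0.02 over all 7911 named genes in both. The summed signal of the 9 genes was 8984 and 13394 with 9393 and 9279 and 13212 with 9370, against 16470.0 and 17554 with AVG. It was 10541 and 11731 in untreated eto1-4, 10625 and 12229 in Col-0, and 15430 and 13031 with 7303. The AVG arrays were thus above both untreated genotypes, as were both 7303 arrays and the replicate 2 arrays of 9393 and 9370.

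Among 17 measured genes of photosynthesis, 9 were higher with 9393 and 9370 than with AVG without overlap and 0 lower, against 15.1% and 13% of all tested probe sets, and none passed the test. The median difference was 0.47, and 0.37 from replicate 2 alone, with a range over the genes of -0.35 to 0.79. The examples of largest difference were SBPASE, sedoheptulose bisphosphatase of the Calvin cycle (0.79), RCA, rubisco activase (0.78), LHCB4.2, a light-harvesting protein of photosystem II (0.74), and PSBY, a small photosystem II protein (0.73). RCA stood at 6762 and 8515 with 9393 and 7085 and 9716 with 9370, against 4901 and 4348 with AVG. The summed signal of the 17 was 90131 and 83546 with 9393 and 89340.0 and 88552 with 9370, against 67302 and 58717 with AVG. It was 76704 and 83644 in untreated eto1-4 and 93620.0 and 110340.0 in Col-0. With 7303 it was 54438 and 71870, so a low sum was not particular to AVG. The groups of compound and AVG arrays did not overlap in this sum, in either replicate.

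Plastid-encoded genes, and a ribosomal protein list made up mostly of them, moved differently between the replicates. Of 68 measured genes of the chloroplast genome, a list added after the data were seen, 10 were higher without overlap (14.7%, against 15.1% of all tested probe sets) and 0 lower (against 13%). Their median difference was 0.34 from the 4 arrays and 0.01 from replicate 2 alone. Their summed signal was 337820.0 and 198520.0 with 9393 and 355310.0 and 230650.0 with 9370, against 210950.0 and 224540.0 with AVG, so the replicate 1 arrays stood well above the other 4. It was 288590 and 291250 in untreated eto1-4 and 325650 and 337690 in Col-0, also above the replicate 2 and AVG arrays. Most of the 17 measured ribosomal protein genes are plastid-encoded and belong to the chloroplast genome list too, so the 2 lists are not separate results. The 17 had a median of 0.38 and of 0.03 from replicate 2 alone. Of them 4 were higher without overlap (23.5%, against 15.1%) and 0 lower (against 13%). These 4 were the plastid-encoded rpl16, rps3, rpl22 and rps19. Their summed signal was 70805 and 44547 with 9393 and 68366 and 48164 with 9370, against 41378 and 47592 with AVG. Untreated eto1-4 had 62079 and 63292, and Col-0 had 68683 and 79876.

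In the remaining lists, apart from THI2.2, no gene passed. Their counts of genes without overlap stand against 15.1% (higher) and 13% (lower) of all tested probe sets. Gibberellin metabolism and response had 4 measured genes, of which the receptors GID1A and GID1C and the F-box gene SLY1 were lower without overlap, by -0.63, -0.56 and -0.18. From replicate 2 alone these were -0.2, -0.17 and -0.31. The auxin list had 2 of 15 genes lower without overlap and 0 higher (13.3% lower), with a median of 0.01 and of 0.2 from replicate 2 alone. Among 17 genes of oxidative stress, 5 were higher (29.4%) and 8 lower (47.1%) without overlap, with a median of -0.14 and of -0.21 from replicate 2 alone, and these included the aldehyde dehydrogenase genes ALDH3F1 (0.57) and ALDH6B2 (-0.76). Of 33 UDP-glycosyltransferases, which attach sugars to hormones and other small molecules, 6 were higher (18.2%) and 1 lower (3.03%) without overlap, with a median of 0.00, of 0.02 from replicate 2 alone, and a highest difference of 1.29 for UGT78D2. Cellulose, xylan and lignin had 6 of 35 higher (17.1%) and 0 lower, and serine carboxypeptidase-like genes 5 of 14 higher (35.7%) and 1 lower (7.14%). Expansins, which loosen cell walls, had 3 of 14 higher (21.4%) and 0 lower, and xyloglucan endotransglucosylases 2 of 7 (28.6%) and 0. From replicate 2 alone the medians of these 4 lists were 0.16, 0.25, 0.27 and 0.19, against 0.14, 0.29, 0.04 and 0.18 from the 4 arrays. The tissue marker lists gave no gene without overlap for root hair (3 measured) or epidermis (3), and EEL and LEA18 of 13 seed and embryogenesis genes were lower without overlap. The summed signal of the seed list was 21821 and 18581 with 9393 and 20737 and 15533 with 9370, against 15102 and 19958 with AVG, and these overlapped.

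**Figure D5:**
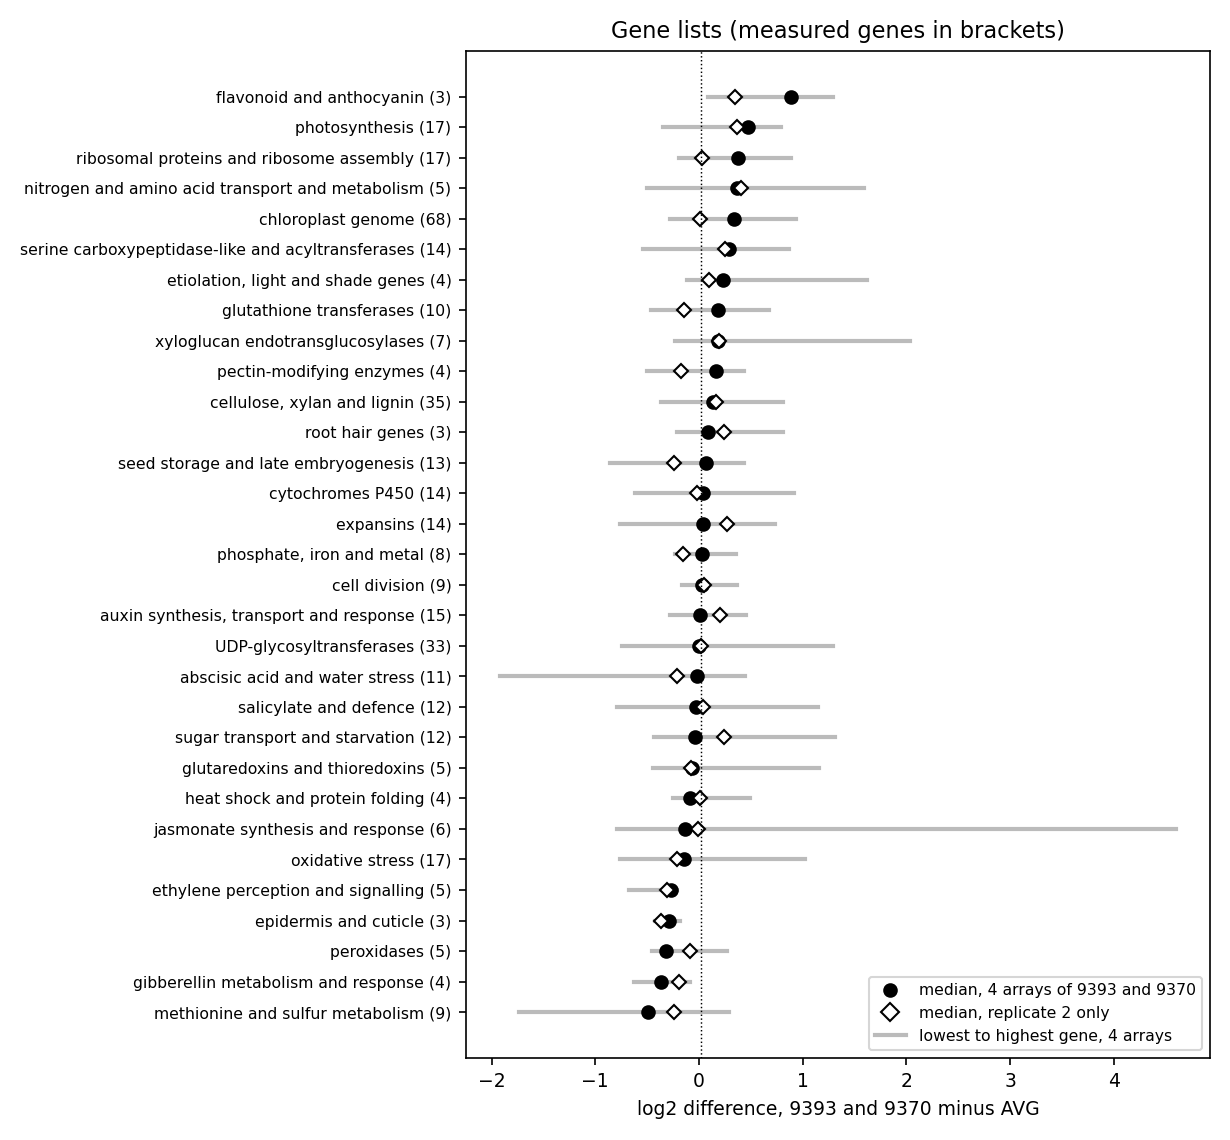
Median log2 difference of 9393 and 9370 from AVG for each gene list with at least 3 measured genes, from the 4 arrays (filled circles) and from replicate 2 alone (open diamonds), with the range of the genes from the 4 arrays (grey bars) and the median of all genes (dotted line). The methionine and sulfur list has the lowest median from the 4 arrays (-0.49, and -0.24 from replicate 2 alone), and the chloroplast genome list is at 0.34 and 0.01.

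The compounds 9393 and 9370 were compared with each other in the same fit, as 1 of 3 pairs at equal dose and age. No probe set was called (0%), and 132 (0.89%) had an unadjusted p under 0.05. The median absolute difference was 0.124, and the median half-width of the 95% interval was 0.56. Replicate 1 minus replicate 2 correlated at 0.78 across probe sets between 9393 and 9370, and this model counts that shared shift as spread. With the replicate number as a block within 9393 and 9370, a setting added after the data were seen, the half-width was 0.45, no probe set was called, and 367 (2.47%) had an unadjusted p under 0.05. A p that misses the threshold does not show that the compounds act alike. At THI2.2 the difference of 9393 from 9370 was -0.08 (95% interval -1.16 to 1), at CRR42 -0.15 (-0.91 to 0.62) and at COR27 0.75 (-0.03 to 1.53). Each compound alone against AVG gave THI2.2 as its only call (0.00674%), at 4.56 for 9393 (adjusted p 0.0394) and 4.64 for 9370 (adjusted p 0.0337). Adjusted over the probe sets of all 3 pairs together, both were 0.0591 and did not pass.

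The largest differences between 9393 and 9370 were taken among genes whose arrays did not overlap (16.1% of tested probe sets), and none passed. AT4G31200 had 271 and 266 with 9393, against 142 and 136 with 9370, and differed by 0.84 within replicate 1 and 0.86 within replicate 2 (95% interval of the mean difference 0.4 to 1.3). It was the closest agreement between the replicates among these genes, and its adjusted p was 1. PDF1.2b, a plant defensin gene of the jasmonate and ethylene response, had 8.33 and 6.62 with 9393, against 128 and 36.1 with 9370, and both 9393 signals lay below the offset. cwINV6, a cell wall invertase-like fructan exohydrolase gene, had 237 and 228 with 9393, against 436 and 693 with 9370, a difference of -1.17 (-1.93 to -0.41). AT5G60520, AT3G49960, AT3G02320 and AT4G33905 were higher with 9393 by 0.99, 0.84, 0.83 and 0.82. AT2G16005, AT3G63360 and AT5G47980 were lower with 9393, at -1.1, -1.04 and -1.01, and AT2G16005 was also among the genes lower than with AVG.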

How the data were processed

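The submitters' processing notes name MAS5 for the deposited intensity of each probe set; its version and settings are not stated in the labels or headers. After trimming 2% the mean was equal on every array, so the authors had scaled them. To each intensity 22.4 was added, the 20th percentile of all signals, before log2, which understates differences of dim genes. Tests covered probe sets brighter than the 40th percentile of the array on 2 or more arrays. The 12 arrays were fitted together in limma 3.58.1 (R 4.3.3), with 1 mean for each of the 6 groups and a variance trend over intensity. Adjusted p-values follow Benjamini and Hochberg over all probe sets of a comparison, with a threshold of 0.05. The replicate 2 comparison left out replicate 1 of 9393 and 9370 and used 10 arrays. Gene names came from the platform annotation, with symbols of assembly TAIR10.1: of 14830 tested probe sets, 7995 (53.9%) name 1 gene. Positions are not given, since no build is named in the files. The script was tested on simulated data. The number of arrays limits the precision.

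The members, the 43 gene lists and the tests were chosen with earlier results of these data known. Lists were described by counts and by the median over 1 probe set per gene, the brightest. The rule named all called genes, the measured genes of the ethylene lists, and for 9393 against 9370, where none was called, the 5 highest and 5 lowest without overlap. Other offsets, filters, normalizations, blocks and groupings, and each array left out in turn, were run as alternatives. Equal replicate numbers were checked as pairs: the replicate 1 minus replicate 2 deviations correlated at 0.78 between 9393 and 9370, at -0.08 between 9393 and AVG and at -0.01 between 9370 and AVG, so the numbers are not shown to pair the AVG arrays with the others.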

Additional observations from a re-analysis of the deposited data

How the results depend on the processing

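For 9393 and 9370 against AVG the count of 1 stayed at 1 under offsets of 1 and 64, no filter, quantile normalization, median centring, no intensity trend, only the groups compared and the poly-A spike as a block. It was 0 with only spiked arrays and 174 with the 4 arrays as 1 group. Leaving out single arrays gave 0 to 125: 125 and 124 without replicate 1 or 2 of 7303, 9 without replicate 2 of 9370, and 0 without either AVG array. The cause was not tested. The difference of THI2.2 ranged from 3.37 to 6.65 over 23 alternatives, and it was called in 20 of them. Replicate 2 of 9393 and 9370 against AVG gave 0 calls, 1 with an offset of 1, and 0 to 1 with single arrays left out. With replicate 1 of 9393 and 9370 in place of replicate 2, chosen after seeing the data, it gave 2075 calls. For 9393 against AVG the count of 1 was 0 when adjusted over the 3 pairs together, without a filter, without an intensity trend, with an offset of 64, with only spiked arrays, with the poly-A spike as a block and with quantile normalization. For 9370 against AVG the count of 1 was 0 when adjusted over the 3 pairs together, without a filter, with an offset of 64, with only spiked arrays and with the poly-A spike as a block. Leaving out single arrays gave 0 to 1 for 9393 and 0 to 3 for 9370. The comparison of 9393 with 9370 gave 0 calls under every alternative run. For the 4 arrays as 1 group, the 174 calls were 0 with only spiked arrays, 0 to 254 with single arrays left out and 359 with a replicate block, alternatives added after the data were seen; all 174 were among the 359. With the replicate number as a block (replicate block) the counts were 1 for both compounds, 1 for 9393, 1 for 9370, 0 for replicate 2 alone and 0 for 9393 against 9370. The eto1-4 against Col-0 comparison gave 326 calls, and 464 with the replicate block. Over the 144 gene results run, ARL alone changed direction: with single arrays left out its difference ranged from -0.95, without AVG replicate 1, to 0.46, without AVG replicate 2.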
